A study of Mus musculus with 20 samples.

Results

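The acute phase genes measured here were serum amyloid A 1 to 4 (Saa1, Saa2, Saa3, Saa4), lipocalin 2 (Lcn2), haptoglobin (Hp), orosomucoid 1 and 2 (Orm1, Orm2) and ceruloplasmin (Cp). They were taken as every probe, control spots excluded, whose gene name on the array was 1 of these 9 symbols, which gave 11 of the 41174 probes. The group was chosen by the measured rise of Saa3 and related genes in injured over uninjured wild-type tracheas, so the wild-type injury values are a description and carry no test here. Of the 11 probes, 8 passed the filter on dim probes, 1 for each gene except Saa4, out of 26063 probes that passed in all.

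Gene expression was profiled in whole tracheas of 20 C57/Bl6 mice aged 4 months according to the labels, on 1 single-dye Agilent array per mouse. There were 4 groups of 5 mice: wild-type uninjured, Myd88KO uninjured, wild-type injured and Myd88KO injured. Injured mice received 2% polidocanol, a detergent that strips the tracheal epithelium, 3 days before the trachea was taken. The labels name no sham instillation for the uninjured mice. Myd88KO mice lack Myd88, the adaptor through which most Toll-like receptors and the interleukin 1 receptor signal, in all cells. According to the methods they had been backcrossed to C57/Bl6JOlaHsd and were bred from knockout parents, whereas wild-type mice came from a separate colony, so genotype and colony cannot be told apart. A whole trachea holds epithelium, glands, cartilage, muscle and blood cells, and a lower signal from fewer cells of a type cannot be told apart from less RNA per cell.

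Acute phase proteins are secreted, mainly by the liver, when interleukin 6, interleukin 1 and related cytokines act through STAT3, NF-kB and C/EBP factors, and several are also made locally by epithelium, macrophages, neutrophils and fat. Serum amyloid A proteins bind lipids and attract leukocytes, and lipocalin 2 withholds iron from bacteria by binding their siderophores. Haptoglobin captures free haemoglobin, the orosomucoids carry small lipophilic molecules in plasma, and ceruloplasmin is a copper-containing ferroxidase.

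The 4 Saa genes lie together. Their probes spanned 41.6 kb of chromosome 7, from 42888862 to 42930425, and the Orm1 and Orm2 probes spanned 18.6 kb of chromosome 4, from 62779145 to 62797700, in the positions of the files, whose genome build is not given in the sources used here. The probes of Lcn2 (chromosome 2, 32392828 to 32393072), Hp (chromosome 8, 108175404 to 108175463) and Cp (chromosome 3, 19721093 to 19721152) lay elsewhere. For lack of the build, probes were not assigned to exons or untranslated regions.

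Promoter windows, from 250 bases before to 50 bases after the start of the gene, were found in RefSeq (GRCm38.p6) for 7 of the 9 genes. The 250 bases before the start are shown for the 4 genes that were higher in all injured wild-type tracheas than in all uninjured wild-type ones. They are printed 5′ to 3′ on the gene's own strand, and capitals mark every match on either strand to TTNNGNAA, the letters searched for as a C/EBP-type motif, in which N is any base. The intervals are chr7:46742981-46743230 (minus strand) for Saa1, chr7:46751583-46751832 (plus strand) for Saa2, chr7:46715677-46715926 (minus strand) for Saa3 and chr2:32387740-32387989 (minus strand) for Lcn2.
Saa1: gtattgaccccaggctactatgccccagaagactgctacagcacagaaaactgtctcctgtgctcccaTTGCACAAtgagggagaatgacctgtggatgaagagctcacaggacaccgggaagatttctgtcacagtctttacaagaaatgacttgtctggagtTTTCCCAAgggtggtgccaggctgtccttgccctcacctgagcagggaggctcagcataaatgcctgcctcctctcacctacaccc
Saa2: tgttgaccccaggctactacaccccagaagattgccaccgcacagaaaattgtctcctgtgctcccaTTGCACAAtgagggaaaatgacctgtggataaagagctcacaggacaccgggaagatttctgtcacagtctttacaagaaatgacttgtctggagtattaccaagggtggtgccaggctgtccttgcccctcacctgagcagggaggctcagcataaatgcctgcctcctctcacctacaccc
Saa3: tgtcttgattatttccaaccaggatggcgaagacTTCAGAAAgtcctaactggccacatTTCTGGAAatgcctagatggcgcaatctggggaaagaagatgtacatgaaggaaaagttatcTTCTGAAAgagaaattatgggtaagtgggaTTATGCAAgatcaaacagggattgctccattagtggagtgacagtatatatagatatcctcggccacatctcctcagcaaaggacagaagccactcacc
Lcn2: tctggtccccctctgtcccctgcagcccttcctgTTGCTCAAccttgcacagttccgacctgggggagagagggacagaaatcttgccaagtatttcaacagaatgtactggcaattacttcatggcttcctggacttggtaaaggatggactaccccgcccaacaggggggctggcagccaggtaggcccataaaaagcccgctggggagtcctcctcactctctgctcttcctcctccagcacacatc

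The Saa1 and Saa2 windows were identical at 287 of 299 aligned bases (96%), and share the match at −182 in Saa1 and −183 in Saa2, positions being counted back from the start of the gene. Saa1 had a further match at −86, where the Saa2 letters differ. The Saa3 window was identical to that of Saa1 at only 59.8% of aligned bases and held 4 matches, at −216, −191, −129 and −99. The Lcn2 window held 1 match, at −216. All 8 windows of the 7 genes held at least 1 match, as did 40.7% of the 32851 windows of that length in the RefSeq table. None held a match to the STAT motif TTCNNNGAA (8.3% of all windows), to CTGGGAA (11.1%) or to the NF-kB consensus (4.51%). These matches are letters in a window and show no binding.

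Levels are given as the log2 intensity of a probe minus that of the 75th percentile over all probes of the same array, so that a level of 0 is that percentile and a difference of 1 is a 2-fold change. Levels of different probes cannot be set against each other. Over the 20 arrays 57.5% to 67.8% of spots were well above background, and arrays of 1 group correlated at 0.923 to 0.990. Each of the 5 slides carried 1 array of every group under the same replicate number, and slides were scanned on 2 days (slides 2, 3 and 4, then slides 1 and 5). The Myd88 probe, at 2.08 ± 0.14 (SD, n = 5) in wild-type and 1.86 ± 0.17 in Myd88KO uninjured tracheas, did not separate the genotypes before injury (difference −0.21, adjusted p = 1.00) and was lower in Myd88KO after injury (−0.77, limma adjusted p = 0.00820). Whether that probe lies within the deleted part was not tested. Of 7 hepatocyte genes on the array, albumin (Alb), transthyretin (Ttr) and Apoa1 were well above background on 0 arrays, Fgb on 4, Ahsg on 19 and Cyp2e1 and Tat on 20.

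After injury, Saa1, Saa2, Saa3 and Lcn2 were higher in wild-type tracheas than before it. Among injured Myd88KO tracheas Saa3 and Lcn2 varied widely (SD 2.78 and 1.84), and Saa1 and Saa2 varied less (0.56 and 0.95). Hp differed less between groups, and the means of the orosomucoids and Cp were close to or below their uninjured levels. In wild-type tracheas the level was higher after injury by 7.58 for Saa3, 3.67 for Saa1, 3.62 for Lcn2, 2.03 for Saa2 and 1.34 for Hp, and by 0.24 for Orm2, and it was lower by 0.38 for Orm1 and 0.66 for Cp. In Myd88KO tracheas the corresponding differences were 4.12, 0.36, 0.82, 0.03, 0.00, −1.12, −1.26 and −1.02. None of the 8 passed the test in Myd88KO, and the injured Myd88KO mean was below the injured wild-type mean for all 8.

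**Figure D1:**
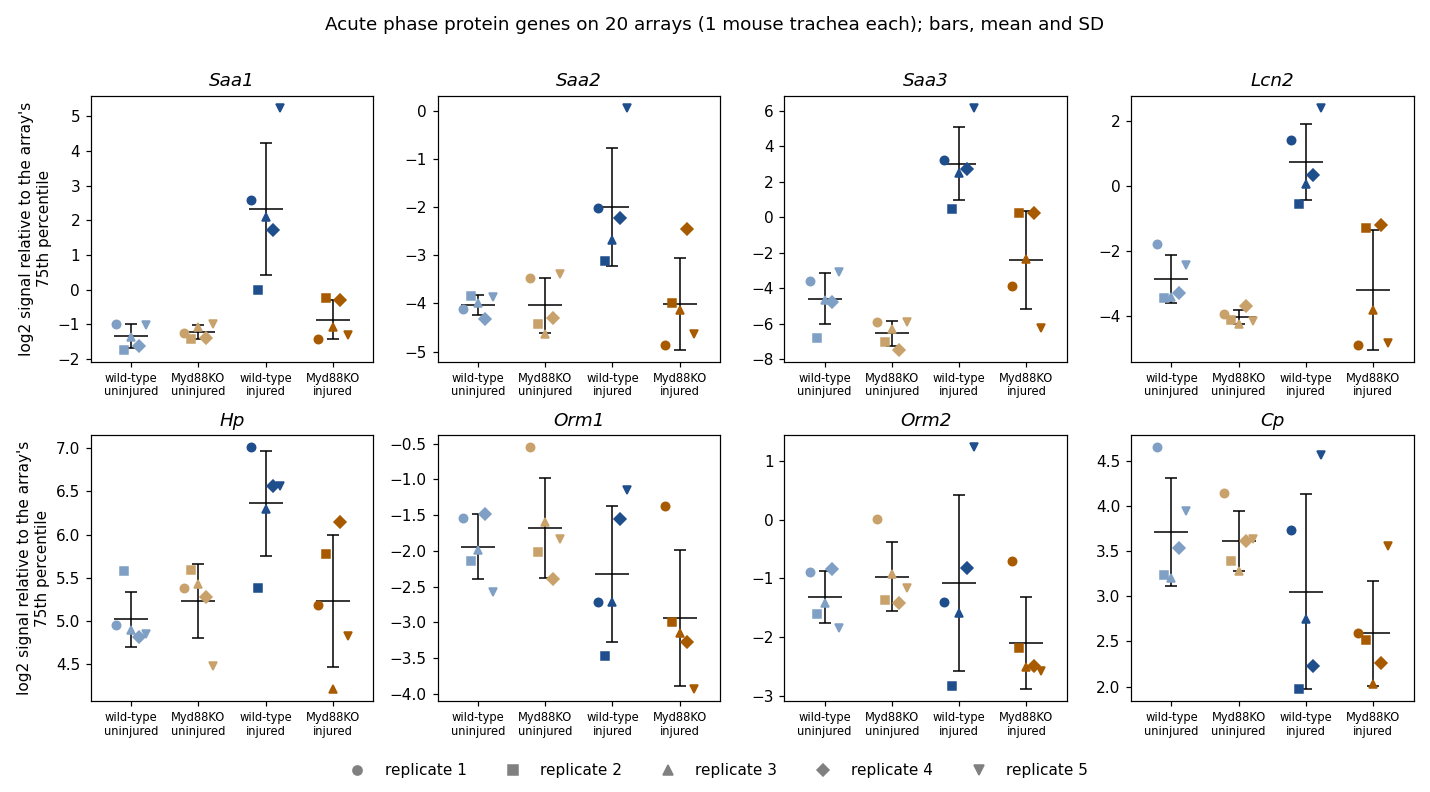
Log2 signal above or below the array's 75th percentile (vertical axis) for the 8 tested probes in the 4 groups (horizontal axis). Points are single tracheas, with 1 symbol per replicate number, which is also the slide, and black bars are the mean and SD of 5 arrays. Injured wild-type arrays stand above uninjured ones for Saa1, Saa2, Saa3 and Lcn2, and in injured Myd88KO tracheas replicates 2 and 4 are the highest for Saa1, Saa3, Lcn2 and Hp.

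Saa3, a serum amyloid A made largely outside the liver, had the widest range. In uninjured wild-type tracheas its level was −3.61, −6.80, −4.64, −4.77 and −3.11 in replicates 1 to 5, and it was well above background on 3 of these 5 arrays. In uninjured Myd88KO tracheas it was −5.91, −7.05, −6.31, −7.47 and −5.92, well above background on 0 of 5. Of the 10 uninjured tracheas, 3 thus measured the probe. Injured wild-type levels were 3.20, 0.45, 2.48, 2.69 and 6.16, each above every uninjured array. Injured Myd88KO levels were −3.87, 0.23, −2.35, 0.22 and −6.26. Replicates 2 and 4 came close to the lowest injured wild-type trachea, and replicate 3 lay between them and the uninjured tracheas. Replicate 1 lay above all uninjured Myd88KO tracheas but within the uninjured wild-type range. Replicate 5 lay within the uninjured Myd88KO range.

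The Saa3 means were −6.53 ± 0.70 (SD, n = 5) in uninjured and −2.41 ± 2.78 in injured Myd88KO tracheas, a difference of 4.12 (95% interval 1.83 to 6.42) that did not pass the threshold (limma adjusted p = 0.0458). No uninjured Myd88KO array measured the probe, so a lower bound on the difference of the 2 means was taken, at 6.1-fold. It carries no sampling error, and 4 of the 5 injured arrays were well above background. The difference was 5.09 (adjusted p = 0.00308) without Myd88KO injured replicate 5, 5.48 (adjusted p = 0.000617) with arrays weighted by quality, and 1.87 (adjusted p = 0.175) after normexp background correction, which compresses dim levels. An exact 2-sided permutation test over the 10 Myd88KO arrays gave p = 0.0238, where the smallest p that 252 arrangements allow is 0.00794. Between genotypes after injury the difference was −5.40 (95% interval −7.70 to −3.10, limma adjusted p = 0.0205). All 5 Myd88KO arrays were below all 5 wild-type arrays, the highest at 0.23 against the lowest at 0.45. The probe was well above background on 12 arrays, 5 injured wild-type, 4 injured Myd88KO and 3 uninjured wild-type. It thus passed the filter on dim probes only through its injured levels, and its p values are not counted as support.

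Saa1, a lipoprotein-bound acute phase protein, was bright enough to be measured on all 20 arrays. Its uninjured levels were −0.98, −1.73, −1.37, −1.61 and −1.01 in wild-type and −1.25, −1.42, −1.06, −1.38 and −0.99 in Myd88KO tracheas. The genotypes therefore overlapped fully before injury, with means of −1.34 ± 0.34 and −1.22 ± 0.19 (SD, n = 5 each). Injured wild-type levels were 2.58, 0.00, 2.11, 1.71 and 5.25, and injured Myd88KO levels were −1.42, −0.24, −1.06, −0.30 and −1.29. Every injured wild-type trachea exceeded every other trachea, and only Myd88KO replicates 2 and 4 left the uninjured range. The Myd88KO injury difference was 0.36 (95% interval −0.87 to 1.59, adjusted p = 0.786). The difference between injured genotypes was −3.19 (95% interval −4.42 to −1.96, 9.15-fold), and it passed the test (limma adjusted p = 0.00820). This comparison shares the injured wild-type arrays by which the genes were chosen. The call was lost in limma with the slide as a block (adjusted p = 0.0137) and with normexp (0.0106), and held in 3 of 20 fits that left out 1 array.

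A second Saa1 probe was dim. It was well above background on 4 of 5 injured wild-type arrays, 1 of 5 uninjured Myd88KO arrays and 0 of the other 10, and was not tested. Its mean was −3.87 ± 1.48 (SD, n = 5) in injured wild-type and −5.77 ± 0.39 in injured Myd88KO tracheas, at least 2.25-fold higher in wild-type. The injured wild-type mean was at least 1.94-fold above the uninjured wild-type one (−5.98 ± 0.59), and neither bound carries sampling error. The direction is that of the brighter probe.

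Saa2, which is closely related to Saa1, was also highest in injured wild-type tracheas. Uninjured levels were −4.12, −3.85, −3.98, −4.32 and −3.87 in wild-type and −3.48, −4.42, −4.63, −4.31 and −3.38 in Myd88KO tracheas. Injured levels were −2.02, −3.12, −2.68, −2.23 and 0.06 in wild-type and −4.87, −3.98, −4.14, −2.45 and −4.64 in Myd88KO. Myd88KO replicate 4 was the single injured Myd88KO trachea within the injured wild-type range. The probe was well above background on every wild-type array, on 4 of 5 uninjured and on 3 of 5 injured Myd88KO arrays. The injury difference in Myd88KO was 0.03 (95% interval −0.99 to 1.04, adjusted p = 0.984), and that between injured genotypes was −2.02 (SE 0.49), which did not pass the test (adjusted p = 0.0621). Saa1 and Saa2 are near copies, the probe sequences were not used here, and how far the probes share signal was not tested.

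Saa4, the constitutive member of the family, was not detected as a group. One of its probes was well above background on 2 arrays, 1 uninjured and 1 injured wild-type trachea, and the other on 0 arrays. Group means of the first lay between −6.54 and −5.25 and of the second between −7.05 and −6.63, so neither was tested.

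Lcn2, a siderophore-binding protein of epithelium and of neutrophil granules, had uninjured levels of −1.78, −3.46, −3.43, −3.30 and −2.44 in wild-type and −3.95, −4.12, −4.26, −3.70 and −4.15 in Myd88KO tracheas. All 5 uninjured Myd88KO tracheas were below all 5 wild-type ones. The probe was well above background on 5 of 5 arrays in both wild-type groups. In Myd88KO it was so on 4 of 5 uninjured and 3 of 5 injured arrays, so the lowest Myd88KO levels were near background. Injured levels were 1.43, −0.56, 0.07, 0.34 and 2.41 in wild-type and −4.91, −1.30, −3.83, −1.21 and −4.83 in Myd88KO. The injured Myd88KO arrays fell into replicates 2 and 4, above the uninjured wild-type range, replicate 3, within the uninjured Myd88KO range, and replicates 1 and 5, below it. The Myd88KO injury difference was 0.82 (95% interval −0.59 to 2.23, adjusted p = 0.540). Between injured genotypes Lcn2 differed by −3.95 (95% interval −5.36 to −2.54, 15.5-fold), and this passed the test (limma adjusted p = 0.00381). As for Saa1, the comparison shares the injured wild-type arrays by which the genes were chosen. Its call was lost in limma with the slide as a block (adjusted p = 0.0153) and with array weights (0.0134). It held in 15 of 20 fits that left out 1 array.

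Hp, the haemoglobin scavenger, was bright in every trachea. Uninjured levels were 4.96, 5.58, 4.90, 4.82 and 4.85 in wild-type and 5.38, 5.59, 5.43, 5.28 and 4.48 in Myd88KO tracheas, and injured levels were 7.01, 5.38, 6.30, 6.56 and 6.56 in wild-type and 5.19, 5.77, 4.21, 6.15 and 4.83 in Myd88KO. Injured wild-type replicate 2 lay within the uninjured range and the other 4 above it, whereas injured Myd88KO tracheas lay on both sides of their uninjured mean. The Myd88KO injury difference was 0.00 (95% interval −0.70 to 0.69), and that between injured genotypes was −1.13 (95% interval −1.83 to −0.44, adjusted p = 0.147), neither past the threshold.

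Orm1 and Orm2, the orosomucoid carriers, had lower means in injured than in uninjured Myd88KO tracheas, a difference that passed the test for neither. Injured Myd88KO levels of Orm1 were −1.37, −2.99, −3.15, −3.27 and −3.94, against uninjured levels of −2.40 to −0.55 with a median of −1.84. Those of Orm2 were −0.71, −2.19, −2.51, −2.49 and −2.58, against −1.42 to 0.01 with a median of −1.16. For both genes 4 of the 5 injured Myd88KO tracheas were below all uninjured ones, and replicate 1 was not. The differences were −1.26 (95% interval −2.23 to −0.29, adjusted p = 0.140) for Orm1 and −1.12 (adjusted p = 0.257) for Orm2. Wild-type injured levels ran from −3.48 to −1.15 for Orm1 and from −2.84 to 1.23 for Orm2, and overlapped all other groups. The 2 genes are close paralogs and shared signal between their probes was not tested. All 7 tested adipocyte markers also had lower means in injured than in uninjured Myd88KO tracheas (median −0.69, against −0.07 over all probes), led by Plin1 (−1.05) and Adipoq (−0.93), and 0 of 7 passed the test. Their summed log2 level over 8 probes overlapped between all groups, with a median of 8.89 in uninjured and 8.15 in injured Myd88KO tracheas and of 9.09 and 8.92 in wild-type ones. The part of adipocyte content in the Orm1 and Orm2 levels was not tested.

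Cp, the ferroxidase, was lower on average after injury in both genotypes. Its injured levels were 3.73, 1.97, 2.75, 2.23 and 4.56 in wild-type and 2.59, 2.52, 2.03, 2.26 and 3.56 in Myd88KO tracheas. Uninjured levels were 3.20 to 4.65 (median 3.53) in wild-type and 3.28 to 4.14 (median 3.61) in Myd88KO. The Myd88KO difference was −1.02 (95% interval −1.89 to −0.16, adjusted p = 0.181), and replicate 5 was again the array that remained within the uninjured range.

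**Figure D2:**
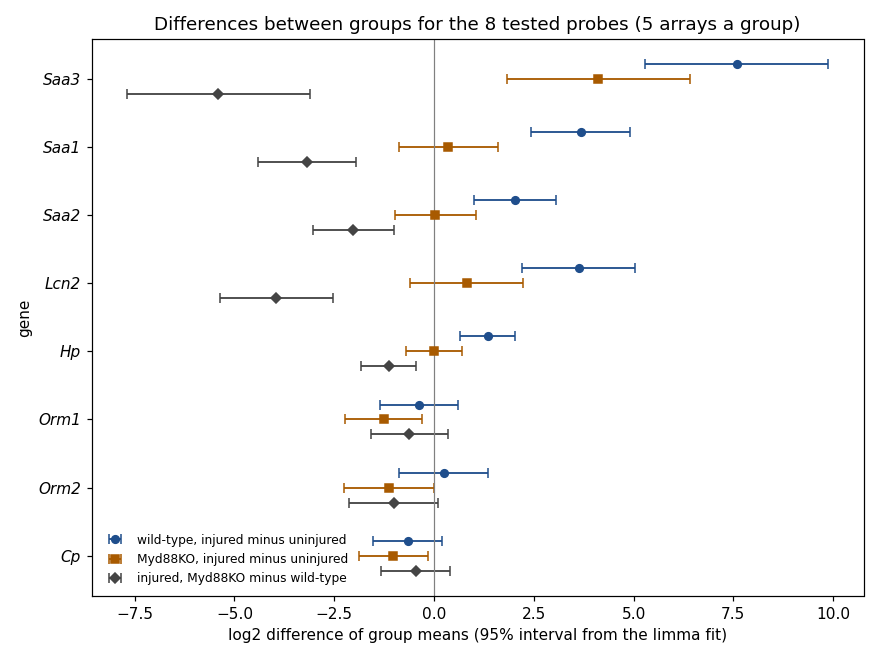
Differences of group means in log2 units (horizontal axis) with 95% intervals from the limma fit for the 8 tested probes (vertical axis), 5 arrays a group. The intervals for the wild-type injury difference lie above 0 for Saa3, Saa1, Saa2, Lcn2 and Hp, a description of the values by which the genes were put together, and the interval between injured genotypes lies below 0 for the same 5 genes.

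Across the 4 comparisons that were tested, the members were read against all probes on the array. For injury in Myd88KO tracheas 0 of 8 member probes passed an adjusted p under 0.01 in limma, where 0.376% of all probes did, and 3 had an unadjusted p under 0.05 (Saa3 higher, Orm1 and Cp lower), where 19.5% of all probes did. The median difference of the 8 was 0.01, against −0.07 over all probes tested. Between uninjured genotypes 0 of 8 passed (0.384% of all probes) and 0 had an unadjusted p under 0.05 (5.59%). The 2 largest differences were −1.95 for Saa3 and −1.15 for Lcn2, each with adjusted p = 1.00. Lcn2 was the 1 member whose uninjured groups did not overlap (2.51% of all probes). For Saa3 the lower bound on the difference of means was 1.35-fold, higher in wild-type and without sampling error. The 95% interval of its fitted difference, −4.24 to 0.35, included 0. Normexp background correction reduced the differences of Saa3 and Lcn2 to −0.51 and −0.57. On the other 6 probes the uninjured genotypes differed by −0.10 to 0.35.

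Between injured genotypes Saa1 and Lcn2, 2 of 8, passed (0.380% of all probes), and Saa1, Saa3 and Lcn2 did not overlap (1.96%). The median of the 8 differences was −1.58, against −0.03 over all probes, and all 8 were negative. An unadjusted p under 0.05 was found for 5 of them, Saa1, Saa2, Saa3, Lcn2 and Hp, and for 12.5% of all probes. This comparison and that of the injury responses share the injured wild-type arrays by which the genes were put together, so their p values are not independent of that choice. Both calls were lost with the slide as a block, where adjusted p was 0.0137 for Saa1 and 0.0153 for Lcn2, and when only the 2 injured groups were fitted (0.235 and 0.147). Leaving out 1 array at a time, Lcn2 was called in 15 of 20 fits and Saa1 in 3. Lcn2 was lost without injured replicate 1 or 5 of either genotype or without Myd88KO injured replicate 3.

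The injury responses themselves differed, as Myd88KO minus wild-type, by −3.46 for Saa3, −3.31 for Saa1, −2.80 for Lcn2, −1.34 for Hp, −1.36 for Orm2, −0.88 for Orm1 and −0.36 for Cp, with Saa2 between Lcn2 and Orm2. The Saa3 value rests on uninjured Myd88KO arrays that did not measure the probe and was −3.73 with normexp. None passed the test (limma adjusted p from 0.390 to 0.852), and neither did any other probe on the array, which makes 0.00% of all probes. An unadjusted p under 0.05 was found for 5 of the 8, Saa1, Saa2, Saa3, Lcn2 and Hp, where 10.4% of all probes had one. 

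The wild-type injury values chose the genes and are a description. The groups of Saa1, Saa2, Saa3 and Lcn2 did not overlap there (12.6% of all probes did not), from which nothing is read. Injured wild-type replicate 5 was the highest for Saa1, Saa2, Saa3, Lcn2, Orm1, Orm2 and Cp, and replicate 2 the lowest for all 8.

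Compared within slides, the injured Myd88KO trachea was below the injured wild-type trachea on 5 of 5 slides for Saa1, Saa2, Saa3 and Lcn2, on 4 for Hp and on 3 for Orm1, Orm2 and Cp. These counts are a description, as they use the injured wild-type arrays by which the genes were chosen. Because the injured groups did not overlap for Saa1, Saa3 and Lcn2, any pairing of arrays would give 5 of 5 for them. The gap differed greatly between slides. For Saa3 it was −7.07, −0.22, −4.83, −2.47 and −12.42 on slides 1 to 5, and for Lcn2 −6.34, −0.74, −3.90, −1.54 and −7.24. For Saa1 it was −4.01, −0.24, −3.17, −2.02 and −6.54. In each case it was smallest on slide 2, where the wild-type trachea was low and the Myd88KO trachea high. Before injury, the Myd88KO trachea was lower on 5 of 5 slides for both Saa3 and Lcn2. Any pairing would give that count for Lcn2, whose uninjured groups did not overlap. For Saa3, 0 of 5 uninjured Myd88KO arrays were well above background.

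The scan days also differed. With 3 arrays a group on the first day and 2 on the second, the injured genotypes differed by −2.51 and −9.74 for Saa3, by −1.81 and −5.27 for Saa1, by −0.85 and −3.77 for Saa2 and by −2.06 and −6.79 for Lcn2. The sign was the same on both days for all 8 probes. The Myd88KO injury difference was 6.31 on the first day and 0.85 on the second for Saa3, 1.92 and −0.82 for Lcn2, 0.75 and −0.24 for Saa1 and 0.93 and −1.32 for Saa2. The higher injured Myd88KO levels of Saa3, Lcn2, Saa1 and Saa2 thus lay mainly in arrays of the first day, and the part of the scan day in this was not tested.

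**Figure D3:**
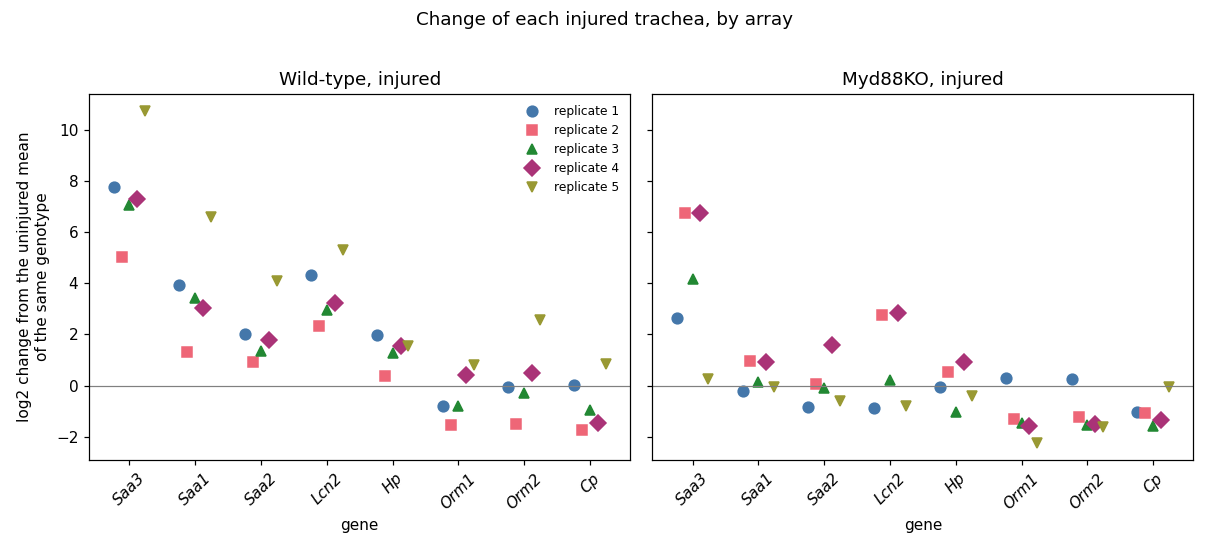
Log2 level of each injured trachea minus the mean of the 5 uninjured tracheas of that genotype (vertical axis) for the 8 tested probes (horizontal axis), wild-type on the left and Myd88KO on the right, with 1 symbol per replicate number. All 5 wild-type tracheas are above 0 for Saa3, Saa1, Saa2, Lcn2 and Hp. In Myd88KO, Saa3 is at 6.76 and 6.75 in replicates 2 and 4 and at 0.27 in replicate 5.

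The Myd88KO tracheas with high Saa3 and Lcn2 also stood apart in other genes. Over 11 neutrophil marker probes the log2 of the summed signal was 8.44 to 9.49 in all 20 tracheas, a sum that holds Ltf, which was bright in all of them. Over the other 10, a sum chosen after seeing the data, the log2 level in uninjured tracheas was 1.39 to 5.06 (median 2.14) in wild-type and −1.10 to 1.29 (median −0.12) in Myd88KO. In injured tracheas it was 3.89 to 8.02 (median 5.77) in wild-type and −0.97 to 5.43 (median 1.25) in Myd88KO. S100a9, a calcium-binding protein abundant in neutrophils, was at 0.95, 3.88, −0.66, 5.21 and −1.73 in injured Myd88KO replicates 1 to 5, and the neutrophil receptor Csf3r at −4.89, −0.96, −4.42, −0.91 and −6.13. Replicates 2 and 4 were thus the high arrays for these 2 genes too. The sum over 10 probes, 4.27 in replicate 2 and 5.43 in replicate 4, lay close to S100a9 alone and is not a separate observation. Of the 7 neutrophil genes tested, 5 had higher means after injury in Myd88KO and 2, Ltf and Mpo, had lower ones. The granule genes Ngp and Elane were well above background on 0 arrays and 0 of the 7 neutrophil genes tested passed the test in Myd88KO (1, Csf3r, did in wild-type, a probe that passed the filter on 10 arrays, 8 of them injured).

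Over 8 macrophage probes (Lyz2, also bright in all tracheas, left out after seeing the data), the summed level was 5.04 to 6.21 in injured wild-type and 4.32 to 5.78 in injured Myd88KO tracheas, against 4.18 to 5.01 and 4.10 to 4.58 before injury. Scgb1a1, a secretory cell protein of the airway and lower after injury in both genotypes (−7.91 in wild-type, −6.24 in Myd88KO), was at −1.16 to −0.08 in injured wild-type tracheas and at 4.79, −0.84, 2.72 and 0.18 in injured Myd88KO replicates 1 to 4, with replicate 5 marked as an outlier spot. Replicates 2 and 4 were therefore also those with Scgb1a1 near its injured wild-type level. The part of leukocyte content and of the extent of epithelial loss in the acute phase levels was not tested.

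**Figure D4:**
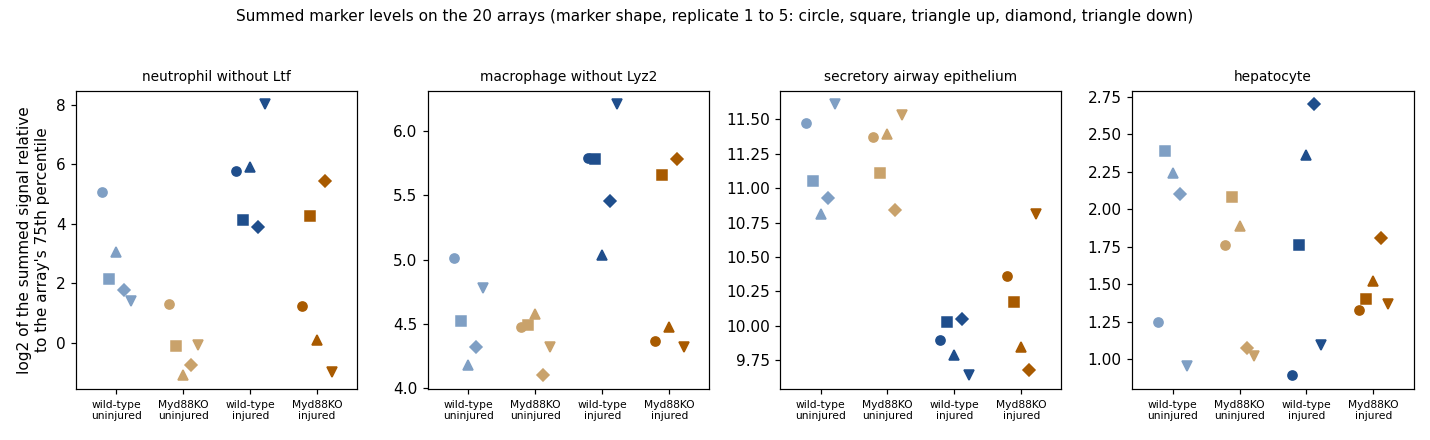
Log2 of the summed signal of marker probes, scaled by the array's 75th percentile (vertical axis) in the 4 groups (horizontal axis), for neutrophil genes without Ltf (10 probes), macrophage genes without Lyz2 (8), secretory airway epithelium (7) and hepatocyte genes (7). Points are single tracheas. The sum over 10 neutrophil probes runs from 3.89 to 8.02 in injured wild-type and from −0.97 to 5.43 in injured Myd88KO tracheas. Leaving out Ltf and Lyz2 was decided after seeing the data, and the 10-probe sum lay close to S100a9 alone. With Ltf, over 11 probes, the ranges were 8.91 to 9.36 and 8.54 to 9.44.

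Across the 20 arrays the serum amyloid A genes and Lcn2 followed each other most closely. Pearson's r was 0.93 between Saa3 and Lcn2, 0.92 between Saa1 and Saa2, 0.90 between Saa1 and both Saa3 and Lcn2, and 0.77 between Saa1 and Hp. It was 0.89 between Orm1 and Orm2, from −0.20 to 0.21 between Saa3 or Lcn2 and the Orm1, Orm2 and Cp probes, and 0.42 and 0.41 between Orm2 and Saa1 and Saa2. As deviations from the 4 group means, which leave out the differences between groups, r was 0.88 for Saa3 and Lcn2, 0.80 for Saa1 and Saa2 and 0.91 for Orm1 and Orm2. On that scale Saa1 followed Cp (0.69) and Orm2 (0.68) about as closely as Lcn2 (0.71), and more closely than Hp (0.41). Most of the Saa1 deviation lay in injured wild-type tracheas (SD 1.90, against 0.19 to 0.56 in the other groups). There replicate 5 was the highest and replicate 2 the lowest for Saa1, Lcn2, Orm2 and Cp alike. These are descriptions over 20 arrays that share slides and scan days.

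The probes of other genes most like each member over the 20 arrays were led, for Saa3, by Arpc3 (r = 0.96), Nxpe5 (0.95), Csf3r, Sdk1 and Ccl6 (0.94 each), and for Lcn2 by Rgl1 (0.95) and Dab2, Csf3r and 4632419I22Rik (0.94 each), then Hacd4 (0.93). Saa1 was most like haemopexin (Hpx, 0.97), a plasma haem scavenger, then Pram1 (0.94), Flot2 (0.93), Clu (0.92) and Mmp3 (0.91). Hpx and Mmp3 were also among the 5 most like Saa2 (0.88 and 0.89). For Hp the highest were Ms4a4d (0.85), Ssr3 (0.84), Sar1a, Ggt5 and Tubb6 (0.83 each). Orm1 and Orm2 shared Pygl (0.81 and 0.77) and Blvrb (0.80 and 0.77) among their 5, and the adipocyte hormone Adipoq was among those of Orm1 (0.79). Cp was most like Them4 (0.92).

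Other positive acute phase genes were followed as a list of 25, of which 18 were tested by their brightest probe. In Myd88KO tracheas 0 of the 18 passed the test after injury, with a median of 0.19 against −0.07 over all probes. In wild-type tracheas 6 passed, all higher: the protease inhibitors Serpina3n (3.96, adjusted p = 0.000116) and Serpina3g (2.07), Hpx (2.59), Lrg1 (1.73), Itih3 (1.37) and complement factor B (Cfb, 1.00), where 3.23% of all probes passed as higher. The largest Myd88KO differences were 1.72 for the interleukin 1 antagonist Il1rn (adjusted p = 0.160), 1.39 for Serpina3n (0.123) and 0.87 for Serpina3g (0.320). Between injured genotypes 2 of 18 passed: Cfb was lower in Myd88KO (−1.58, limma adjusted p = 0.000585) and Lbp, the lipopolysaccharide-binding protein, was higher (1.29, adjusted p = 0.00591). Lbp was also the 1 gene of the list that passed between uninjured genotypes (1.36, adjusted p = 0.00326). Lrg1, Itih3, Cfb and Lbp were named after their values were seen.

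Serpina3n differed from the members in its baseline. Its uninjured levels were −2.56 ± 0.56 (SD, n = 5) in wild-type and −0.13 ± 0.58 in Myd88KO tracheas, which did not overlap (difference 2.42, adjusted p = 0.0185, not past the threshold). Injured levels were 1.09 to 1.85 in wild-type and 0.03, 2.43, 1.09, 2.97 and −0.25 in Myd88KO, with replicates 2 and 4 again the highest. Its means after injury were close, at 1.40 and 1.25 (difference −0.15, adjusted p = 0.934).

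Among the 20 tested genes of the inducing pathway, which include the cytokines, their receptors and the transcription factors, 0 passed in any comparison. Il1b differed by 2.40 (adjusted p = 0.224) in Myd88KO and 3.84 (0.0225) in wild-type injury, with injured Myd88KO levels of −1.88, 0.90, −2.85, 2.45 and −4.76, again highest in replicates 2 and 4. The other inducers with the largest differences were Nfkbiz (0.91) and Socs3 (0.72) in Myd88KO and Il1a (−1.85) and Socs3 (1.28) in wild-type. The cytokine gene Il6 was not tested, being well above background on 4 injured wild-type arrays and on 6 arrays in all. Of 12 genes listed as receptors and binding partners of the members, 0 passed in Myd88KO and 4 in wild-type injury, all higher (5.26% of all probes passed there in either direction). They were the formyl peptide receptors Fpr1 (4.55) and Fpr2 (4.28), Mmp9 (2.22) and Scarb1 (0.76), the last named after its value was seen. Fpr2 binds serum amyloid A, and the Mmp9 protein forms a complex with lipocalin 2. In Myd88KO tracheas the mean of Fpr1 was at least 5.7-fold higher after injury (fitted difference 3.08, limma adjusted p = 0.0591), a bound without sampling error. Of its uninjured Myd88KO arrays, 0 of 5 were well above background. Fpr2 differed by 2.73 (adjusted p = 0.146). Both genes were well above background on exactly 10 arrays, 9 of them injured for Fpr1 and 8 for Fpr2, and on 1 of 5 uninjured wild-type arrays, so they were tested only through their injured levels and their calls are not counted as support.

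Of 9 genes of iron and haem handling, 0 passed in Myd88KO and 1, the phagocyte metal transporter Slc11a1 (2.71, adjusted p = 0.00367), in wild-type injury. Slc11a1 differed by 1.05 in Myd88KO, and haem oxygenase 1 (Hmox1), which breaks down haem, by 0.49 in Myd88KO and 0.94 in wild-type injury. Of the 8 negative acute phase genes, which fall in the liver during an acute phase response, 3 were measurable and 1 passed, Ahsg, which was higher after wild-type injury (1.24, adjusted p = 0.00684). Rbp4 differed by −1.27 (adjusted p = 0.0474) in Myd88KO and −0.95 (0.0771) in wild-type, and Trf by −0.54 and −0.18.

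Markers of the cell types that a trachea could hold were followed by the same test, by the brightest probe of each gene. Of 7 tested secretory genes, 2 passed in Myd88KO injury, Scgb1a1 and Bpifa1 (−2.36), and 3 in wild-type injury, Scgb1a1, Scgb3a2 (−5.77) and Bpifa1 (−2.24), all lower. Of 9 macrophage genes 0 passed in Myd88KO and 4 in wild-type injury, all higher, led by Cd68 (3.27). The dynein gene Dnah5 of ciliated cells was the 1 of 5 ciliated genes that passed in wild-type injury (−3.94) and differed by −1.84 in Myd88KO. Of 7 adipocyte, 5 basal and 5 cartilage genes 0 passed in any comparison, and of 3 measurable hepatocyte genes 1 did, Ahsg in wild-type injury.

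Probes within 2 Mb of each tested member, between 20 and 126 in number, were counted in the comparison of uninjured genotypes. Near the 8 members 0 of them were called, where 0.384% of all probes were. The windows of the Saa genes overlap each other, as do those of Orm1 and Orm2. With so low a share, windows of this size can hold 0 calls in any case, and nothing is read from the count.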

How the data were processed

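Whole tracheas of 20 mice were measured on single-dye Agilent arrays (45018 spots, of which 1639 were controls). The authors deposited, for each array, what Feature Extraction 9.5.1.1 wrote, and the processed intensity of each spot was used. Per the file headers that intensity was spatially and multiplicatively detrended, with surrogates for spots near background and background correction switched off, and no scaling between arrays was applied. The authors' table of values over all arrays holds the same intensities, rounded, and served as an alternative. 0 columns belonged to other samples.

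Outlier-marked spots were left out, spots of each probe were averaged, and log2 intensity minus the array's 75th percentile was used. Probes well above background on at least 10 of 20 arrays were tested (26063 of 41174), after the methods' exclusion of transcripts present in under 50% of samples. Groups and replicate numbers came from the labels, and the mice are separate animals. All 20 arrays were fitted together in limma 3.58.1 (R 4.3.3) with 5 contrasts, Benjamini-Hochberg adjustment over all tested probes within each, and a threshold of adjusted p under 0.01. The methods name a one-way parametric test at that threshold, run here as an alternative on the 2 groups of a comparison. No adjustment was made over the members alone. Where a member, or Fpr1, was well above background on 0 arrays of a group, a lower bound is given for a difference of 2 group means. Such a bound carries no sampling error. Counting error does not apply to arrays, and 5 per group limits the precision.

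The members and the gene lists were chosen with earlier results of these data known. The lists were other positive (25 genes) and negative (8) acute phase genes, inducers (23), receptors and binding partners (12), iron and haem handling (9), and markers of neutrophils (12), macrophages (9), hepatocytes (8), adipocytes (8), secretory (7), basal (5) and ciliated (5) epithelium and cartilage (5). Named were every member, Myd88, up to 3 genes of each list with the largest differences in either injury comparison, and the 5 probes most correlated with a member, and other genes are said where they occur to have been named after their values were seen, apart from markers and untested genes given as checks. Probes were named through RefSeq accessions (22951) or kept the array's name (18223). Promoter windows were aligned with Biopython 1.88. Same-numbered arrays share a slide per the file headers. Their deviations from group means correlated at −0.26 to 0.48 (mean 0.19, against −0.05 for other pairs), over 0.1 in 23 of 30 pairs. As the labels name no pairing and not every pair exceeded 0.1, the fit without the slide was kept, and values with the slide as a block stand beside the calls that it removes. The fit was tested on simulated data. Alternatives were the slide block, normexp, quantile normalization, other filters, the value table, array weights, scan day, fits of 2 groups, outlier spots kept and leaving out each array.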

Additional observations from a re-analysis of the deposited data

Results flagged for a closer look

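Among 32 groups of 5 arrays (8 probes in 4 groups), 3 held an array far from the rest, with a gap to its nearest neighbour of over 0.71 of the group's range, where chance gives about 1 in 20. Hp in uninjured wild-type replicate 2 was at 5.58, against 4.96 for the next array (0.82 of the range). Hp in uninjured Myd88KO replicate 5 was at 4.48, against 5.28 (0.72 of the range). Orm2 in injured Myd88KO replicate 1 was at −0.71, against −2.19 (0.79 of the range). No member moved in opposite directions in every array of the 2 genotypes, and the test of the difference between injury responses called 0 probes (limma, 2704 with an unadjusted p under 0.05).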

How the results depend on the processing

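The number of member probes called between injured genotypes, 2 in the reported fit (Saa1, Lcn2), was 0 with the replicate block, which pairs the arrays of a slide, 0 with only the 2 groups compared, 0 with the methods' one-way test after adjustment, 1 without the filter on dim probes and 1 with array weights. With normexp the number remained 2, but Saa1 was lost (limma adjusted p = 0.0106) and Saa3 came under the threshold (0.00399). Leaving out 1 array at a time the number was 0 to 3. For injury in Myd88KO tracheas the count of 0 became 1 with array weights (Saa3) and 1 with the methods' one-way test before adjustment (Cp), and was 0 to 1 leaving out 1 array, with the 1 (Saa3) without Myd88KO injured replicate 5. For injury in wild-type tracheas, the comparison that chose the genes, 4 member probes were under the threshold (5.26% of all probes). That count became 1 with the methods' one-way test after adjustment and was 3 to 5 leaving out 1 array. Nothing is read from it. The counts of 0 between uninjured genotypes and for the difference between injury responses remained 0 in all alternatives run. Signs changed for 7 member differences, none of them called. Hp in Myd88KO injury (0.00) was 0.04 with normexp, 0.11 with quantile normalization, 0.07 with array weights and −0.23 to 0.25 leaving out 1 array, and Saa2 between uninjured genotypes (−0.01) was 0.03 with quantile normalization and −0.18 to 0.13 leaving out 1 array. Leaving out 1 array, Saa2 in Myd88KO injury (0.03) was −0.36 (without Myd88KO injured replicate 4) to 0.24, Orm2 in wild-type injury (0.24) −0.34 (without wild-type injured replicate 5) to 0.68, Orm1 between uninjured genotypes (0.26) −0.02 (without uninjured Myd88KO replicate 1) to 0.45, Cp there (−0.10) −0.23 to 0.14 (without uninjured wild-type replicate 1), and the difference of the Cp responses (−0.36) −0.63 to 0.02 (without wild-type injured replicate 5). The cause was not tested.

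Over all probes, the 98 calls for injury in Myd88KO became 1904 with array weights, 361 with the scan day as a block, 59 without the filter, 0 with only the 2 groups compared or the methods' adjusted test, 1279 with that test before adjustment, and 6 (without Myd88KO injured replicate 2 or 4) to 1075 (without replicate 5) leaving out 1 array. The 100 between uninjured genotypes became 176 with array weights and 46 with the methods' adjusted test (743 before adjustment). The 99 between injured genotypes became 38 with only the 2 groups compared and 21 with the methods' adjusted test (602 before adjustment). The 1371 for injury in wild-type became 2598 with array weights, 2106 with the scan day as a block, 3800 with the methods' test before adjustment and 665 to 1843 leaving out 1 array. The 0 for the difference between responses became 1 with the replicate block, 2 with the scan day and 3 with array weights. Quantile normalization moved no level of a tested member, relative to that probe's mean, by more than 0.68, the largest shift being that of Saa3. Of the 5 Saa3 differences, 4 were smaller with normexp, and that between injury responses was larger (−3.73 against −3.46).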
